A study of Mus musculus with 12 samples.

Results

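The data describe 10 genes, out of 32285 listed in the files, in single cells from the livers of neonatal mice. They were matched by symbol, and all 10 were found. The 8 immediate early genes are Fos, Fosb, Jun, Junb, Egr1, Atf3, Ier2 and Zfp36, and the 2 inducible heat shock genes are Hspa1a and Hspa1b. Phlebotomy-induced anemia was compared with naive controls in pups of both sexes, labelled C57BL6/J. Anemic pups lost 20 µL of blood per g of body weight through the facial vein at every draw, on alternate days from postnatal day 2 to postnatal day 10. Controls received a daily needle stick without a draw, and all pups were killed on day 11. There were 6 control and 6 anemic mice with 1 library per mouse, so p-values measure the spread between mice, and the labels place all libraries in 1 batch. Pups of each litter were randomised to the groups, but the labels do not tie libraries to litters.

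Immediate early genes are transcribed within minutes of a stimulus, without new protein synthesis, and their mRNAs decay quickly. Fos and Fosb proteins pair with Jun and Junb to form the transcription factor AP-1, Egr1 and Atf3 are transcription factors of their own families, and Zfp36 encodes tristetraprolin, which binds AU-rich elements and speeds the decay of cytokine mRNAs. Hspa1a and Hspa1b encode nearly identical inducible Hsp70 chaperones that heat shock factor 1 switches on when proteins unfold. Immediate early genes answer growth factors, cytokines and injury in the animal, and both sets can also rise while tissue is digested with warm enzyme. Every library here came from liver digested with Liberase, and no undigested sample was analysed here, so RNA made in the animal and RNA made during digestion cannot be told apart.

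Of 207537 barcodes, 206146 cells passed the filters, 98075 from controls and 108071 from anemic mice. Libraries held 45751640 to 65278645 unique molecular identifiers (UMIs) in controls and 51834166 to 74344118 in anemic mice, with a median of 1769 to 2889.5 UMIs per cell. Any pair of libraries shared 51 to 121 barcodes, at most 0.694% of the smaller library. Cells fell into 60 clusters, built without the 10 genes and the related genes described below, and 51 of them were joined into 15 classes by known markers. The other 9 clusters, 7.10% of the cells, stayed unnamed. Cells called as doublets made up 81.6% of the cholangiocyte-like, 56.7% of the stellate-like and 44.8% of the basophil or mast-like class. By Xist, 4 of 6 control and 2 of 6 anemic mice were female. Levels are given as CPM, the gene's UMIs over all UMIs of the class in that mouse, scaled to a common total.

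Both heat shock genes lie on chromosome 17, on the minus strand (GRCm38), Hspa1a at 34969190 to 34972156 and Hspa1b at 34956436 to 34959238. Fos lies on chromosome 12 at 85473890 to 85477273, Fosb and Zfp36 on chromosome 7 at 19302696 to 19310051 and 28376784 to 28380253, and Jun on chromosome 4 at 95049034 to 95052222. Junb and Ier2 share chromosome 8, at 84974484 to 84978718 and 84661331 to 84662852, and Atf3 spans 191170296 to 191218039 on chromosome 1. The 250 bases before the start sites of Hspa1a and Hspa1b are shown because the pair gave the widest spread between mice below. They come from RefSeq (GRCm38.p6), and capitals mark the match to the heat shock element GAANNTTC, which begins 104 bases before each start site.

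Hspa1a, chr17:34972157-34972406, minus strand: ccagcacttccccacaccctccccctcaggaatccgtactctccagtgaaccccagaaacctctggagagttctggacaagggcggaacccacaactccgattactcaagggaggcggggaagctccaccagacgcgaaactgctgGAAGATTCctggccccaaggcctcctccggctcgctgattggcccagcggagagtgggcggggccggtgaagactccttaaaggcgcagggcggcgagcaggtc

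Hspa1b, chr17:34959239-34959488, minus strand: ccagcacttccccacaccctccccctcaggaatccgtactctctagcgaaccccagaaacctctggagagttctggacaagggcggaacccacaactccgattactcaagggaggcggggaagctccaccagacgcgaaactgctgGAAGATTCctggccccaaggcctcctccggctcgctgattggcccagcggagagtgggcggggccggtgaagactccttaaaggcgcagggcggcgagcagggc

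Both stretches are identical at 247 of 250 bases. Promoter windows of 300 bases, 250 before and 50 after the start site, were matched for 8 of the 10 genes. GAANNTTC on either strand was in 3 of the 8, those of Jun, Hspa1a and Hspa1b, and in 7.86% of all 32851 promoters, and TTCNNGAA was in none of the 8 and in 8.52% of all. The cAMP response element TGACGTCA (1.79% of all promoters) and the AP-1 site TGANTCA (7.81%) matched none of the 8 windows. The CArG box matched that of Zfp36 and 1.63% of all promoters. A match describes letters in this window and not a bound site.

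The order of the 15 classes differed from gene to gene and is given as a description. Fos was highest in cholangiocyte-like and stellate-like cells and lowest in erythroid-like and pre-B-like cells. It averaged 2601 ± 475 CPM (SD, n = 12 mice) in the cholangiocyte-like class, 2146 ± 562 in the stellate-like, 1621 ± 296 in the monocyte-like and 1408 ± 164 in the neutrophil-like class. Conventional dendritic-like, endothelial-like and macrophage-like cells followed at 1136 ± 152, 1131 ± 308 and 1103 ± 250.3, in an order that did not hold in all mice. Fos was at 146 ± 30.2 CPM in NK-like cells, 59.1 ± 35.3 in erythroid-like and 43.5 ± 11.9 in pre-B-like cells, a 59.8-fold range between the top and bottom classes. With called doublets left out, cholangiocyte-like cells numbered 1 to 30 per mouse. Their Fos was then 1522 CPM over all mice but 2228 over the 2 mice with at least 20 such cells, so their place in the order without doublets is uncertain. Stellate-like cells had 2986 over the 11 mice with at least 20 cells and monocyte-like cells 1662 over all 12. Fosb, its close relative, ran from 712 ± 115 in cholangiocyte-like and 674 ± 157 in stellate-like to 16.6 ± 3.44 in pre-B-like cells.

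Jun and Junb, the partners of Fos, were distributed differently. Jun peaked in cholangiocyte-like cells at 1517 ± 279 CPM, above the next class, stellate-like at 1085 ± 139, in 12 of 12 mice. With called doublets left out this lead did not hold, at 1275 and 1283 CPM over the 2 and the 11 mice with at least 20 cells. Jun was lowest in neutrophil-like cells, at 55.9 ± 12.7 CPM, a class in which Fos was high. Junb was instead highest in blood-derived cells, at 1686 ± 234 CPM in basophil or mast-like, 1650.2 ± 306 in monocyte-like and 1638 ± 251 in NK-like cells, which overlapped, and lowest in erythroid-like cells at 86.1 ± 39.3.

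Egr1 was highest in stellate-like cells at 1555 ± 192 CPM, then cholangiocyte-like at 1307 ± 183 and endothelial-like cells at 1123 ± 219, and was 55.3 ± 16.4 in B-like and 25.7 ± 5.59 in pre-B-like cells. Atf3, a stress-induced factor, stood at 1711 ± 340.2 CPM in cholangiocyte-like cells against 402 ± 108 in the next class, monocyte-like, a difference seen in 12 of 12 mice. With called doublets left out, cholangiocyte-like Atf3 was 1021 and Egr1 694 CPM over all mice. Over the 2 mice with at least 20 such cells they were 1156 and 1159. Ier2 was highest in basophil or mast-like cells at 1018 ± 505 CPM and overlapped there with cholangiocyte-like cells at 915 ± 165. The places of basophil or mast-like cells for Ier2 and Junb include doublets and were not examined without them. Zfp36 was highest in monocyte-like cells, 739 ± 142 CPM, above macrophage-like cells at 564 ± 106 in 12 of 12 mice.

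The heat shock genes had an order of their own. Hspa1a averaged 95.4 ± 39.7 CPM in macrophage-like, 95.3 ± 98.1 in conventional dendritic-like and 74.2 ± 12.1 in stellate-like cells, and 2.54 ± 1.31 in erythroid-like cells. Hspa1b averaged 98.3 ± 116 in conventional dendritic-like and 71.9 ± 10.6 in stellate-like cells. In conventional dendritic-like cells the SD exceeded the mean for both genes, while in stellate-like cells the 12 mice lay between 56.9 and 97.0 for Hspa1a. Of the 14 pairs of neighbouring classes in each gene's order, only 0 (Hspa1a) to 4 (Zfp36) held in all 12 mice. The basophil or mast-like class, whose cells in anemia 4 were all called doublets, has no levels without doublets. In the other classes, leaving out doublets moved 20 of 140 levels by more than 1 SD. Of these, 8 were in cholangiocyte-like and 7 in stellate-like cells, where some mice kept 1 cell. Over the 11 mice with at least 20 stellate-like cells, Fos was 1.38, Fosb 1.34 and Atf3 1.29 times its level with doublets in the same mice, Egr1 1.02 and Zfp36 0.825. Egr1 in plasmacytoid dendritic-like cells was 0.309 of its value, Fosb and Junb in hepatocyte-like cells 0.494 and 0.568, Junb in erythroid-like cells 0.539, and Junb in plasmacytoid dendritic-like cells 0.747. Levels that moved by less than 1 SD could still fall by a large part where mice varied widely. Egr1 was 0.604 of its value in hepatocyte-like, 0.599 in monocyte-like and 0.475 in erythroid-like cells, but 1.02 in macrophage-like cells. Fos and Hspa1a in hepatocyte-like cells were 0.708 and 0.453, and Zfp36 in erythroid-like cells 0.502.

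**Figure D1:**
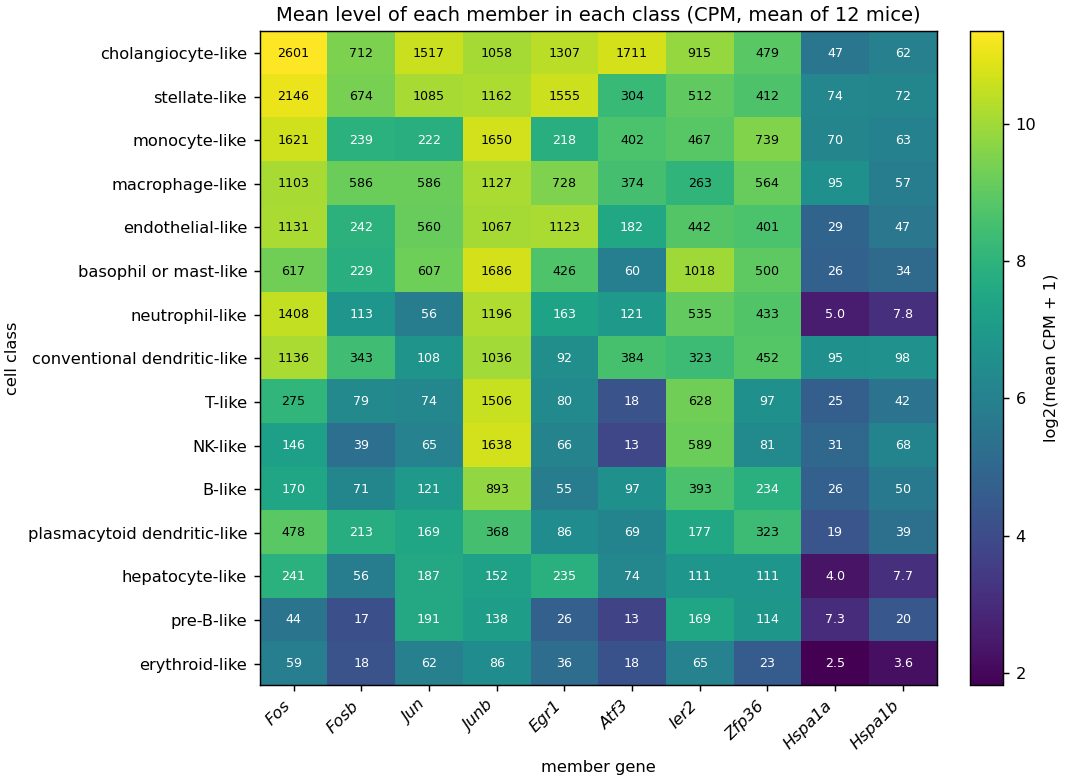
Mean level of each of the 10 genes (columns) in each of the 15 classes (rows), in CPM over the 12 mice with the mean printed in each cell and colour on a log2 scale. Cholangiocyte-like and stellate-like cells hold the highest Fos, at 2601 and 2146 CPM, and the erythroid-like row ranks 13 to 15 of 15 for every gene. Called doublets are included, and without them 1 to 30 cholangiocyte-like cells per mouse are left.

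Anemic and control livers were then compared class by class. A gene was called where edgeR's quasi-likelihood test on summed UMIs gave a Benjamini-Hochberg adjusted p under 0.05 over all genes tested in that class. Of 150 gene and class pairs, 148 could be tested, and 8 were called higher and 15 lower in anemia. That is 15.5% of the tested pairs, against 7.59% over all genes and classes. Most calls lay in the hepatocyte-like (8), endothelial-like (4) and stellate-like (3) classes, where 54.9%, 17.7% and 15.1% of all genes were called. In the other 12 classes 8 of 118 pairs were called, 6.78%, beside 1.03% of all genes in those classes. The count of higher calls was 5 without control 4, control 5 or control 6, and 14 without anemia 2.

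**Figure D2:**
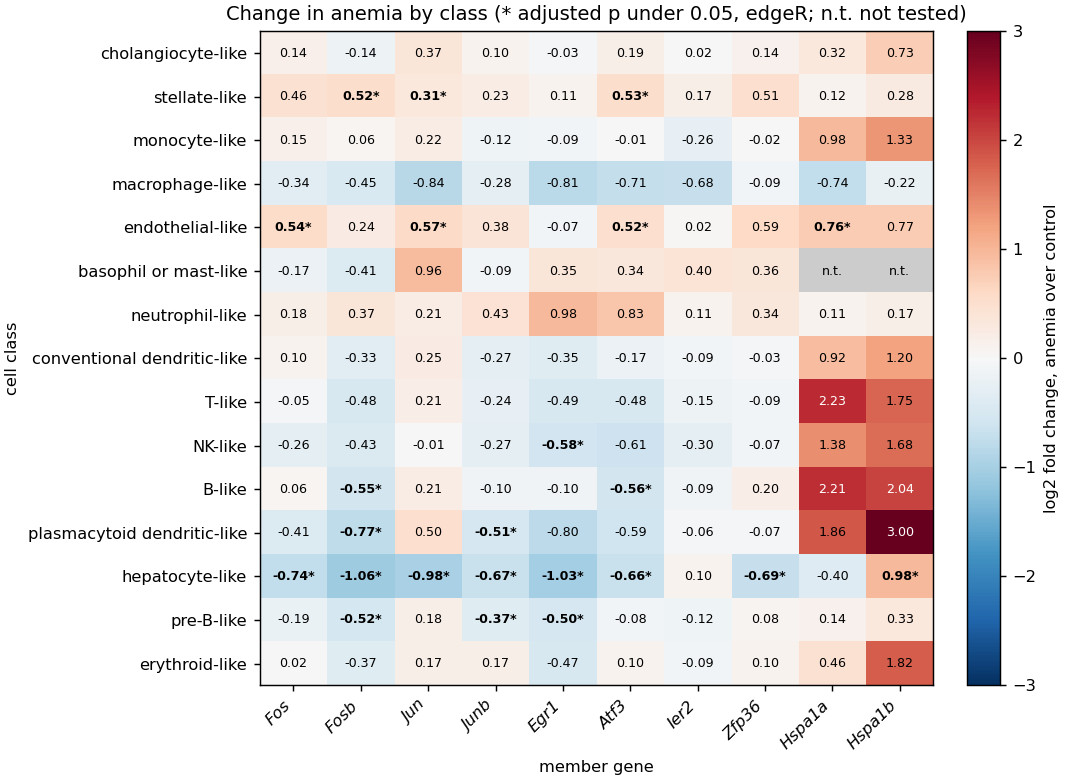
Log2 fold change of each gene (columns) in each class (rows), anemic over control mice, from edgeR, with called pairs in bold with an asterisk and untested pairs in grey. The hepatocyte-like row is negative for 7 of the 8 immediate early genes, with Ier2 at 0.10. The highest value is Hspa1b in plasmacytoid dendritic-like cells at 3.00, which edgeR did not call.

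Hepatocyte-like cells had less immediate early RNA in anemia for 7 of the 8 genes. Fos ranged from 230.1 to 358 CPM (median 334) in the controls and from 126 to 195 (median 165) in the anemic mice (log2 fold change -0.74 ± 0.18 (SE), adjusted p = 0.000232). Fosb ranged from 64.7 to 90 CPM (median 81.3) in the controls and from 23.8 to 39.9 (median 31.1) in the anemic mice (log2 fold change -1.06 ± 0.20 (SE), adjusted p = 4.38e-06). Every anemic mouse lay below every control for both. Jun ranged from 217 to 293 CPM (median 267) in the controls and from 73.1 to 163 (median 107) in the anemic mice (log2 fold change -0.98 ± 0.22 (SE), adjusted p = 4.69e-05), and Egr1, a factor that liver cells induce after injury, from 235 to 378 CPM (median 347) in the controls and from 95.5 to 165 (median 147) in the anemic mice (log2 fold change -1.03 ± 0.22 (SE), adjusted p = 2.1e-05). Junb (-0.67 ± 0.16, adjusted p = 0.000237), Atf3 (-0.66 ± 0.18, adjusted p = 0.00107) and Zfp36 (-0.69 ± 0.17, adjusted p = 0.000311) fell too. The groups did not overlap for any of the 7, as for 32.3% of all genes tested in this class. These levels include called doublets. Without them Fos averaged 171 and Egr1 142 CPM over the 12 mice, against 241 and 235 with them. Ier2 averaged 117 ± 16.6 CPM against 106 ± 36.9 and was not called (0.10 ± 0.18, adjusted p = 0.649). Hspa1b moved the other way, from 2 to 9.14 CPM (median 5.04) in the controls and from 2.3 to 18.6 (median 9.21) in the anemic mice (log2 fold change 0.98 ± 0.37 (SE), adjusted p = 0.0173), with 3 anemic mice above all controls, and it was not called without TMM scaling (0.67, adjusted p = 0.0931). Nor was it called among cells with at most 10% mitochondrial UMIs (0.72, adjusted p = 0.143), where Atf3 was not called either (-0.48, adjusted p = 0.0888), or without control 3, anemia 2 and anemia 5 together (0.70, adjusted p = 0.109). A joint voom model, which fits all classes together, did not call Hspa1b either (adjusted p = 0.326). Hspa1a averaged 4.9 ± 2.44 CPM against 3.11 ± 1.8 and was not called (-0.40 ± 0.40, adjusted p = 0.405). Reads of so similar a pair may be assigned to either gene, and both genes summed gave no call here (0.49 ± 0.33, adjusted p = 0.204). Median mitochondrial share per cell was 2.68 to 3.67% in controls and 0.706 to 2.35% in anemic mice of this class. Hepatocyte RNA, the summed level of 5 hepatocyte genes, was 106031 to 115057 CPM in controls and 69279 to 107096 in anemic mice, and erythroid RNA, likewise of 5 genes, 1080.0 to 5574 CPM in controls and 5068 to 21557 in anemic mice. The part of these in the changes was not tested. TMM scaling placed the median of all genes at -0.09 in this class, and without it the median was -0.40 and the 7 genes ran from -0.98 to -1.37.

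The hepatocyte-like class was made of 3 clusters, whose shares are given as a description with no test. Cluster 24, with 1532 control and 2908 anemic cells, also scored highest for hepatocyte markers but stayed unnamed and is not in the class. Its cells were shallow, and no hepatocyte marker was among its leading genes. Cluster 21, with Dpyd, Apob and Cps1 among its leading genes and the deepest cells (median 3372.5 UMIs), held 39.5 ± 3.32% of control but 17.6 ± 3.48% of anemic hepatocyte-like cells. Cluster 26, led by Gnmt and Ass1, took 19.9 ± 5.41% and 39.99 ± 8.94%, and cluster 23, led by Afp and Apcs, took 40.6 ± 5.40% and 42.4 ± 8.43%. Cluster 21 carried far more immediate early RNA than the others: Egr1 averaged 509 CPM there in controls, against 53.8 and 75.5 in clusters 23 and 26. Fitted within each cluster alone, none of the 7 lower calls of the class was made, beside 7.74%, 6.46% and 4.89% of all genes called in clusters 21, 23 and 26. In cluster 21 Fos changed by -0.11 ± 0.13, adjusted p = 0.707, Egr1 by -0.30 ± 0.15, adjusted p = 0.255 and Jun by -0.31 ± 0.12, adjusted p = 0.0854. In cluster 23 Fos gave -0.54 ± 0.21, adjusted p = 0.113, Jun -0.65 ± 0.26, adjusted p = 0.121 and Egr1 -0.11 ± 0.17, adjusted p = 0.803, and in cluster 26 Egr1 gave -0.02 ± 0.32, adjusted p = 0.993. Fold changes were negative for 8 of 10 members tested in cluster 21, 8 of 9 in cluster 23 and 6 of 8 in cluster 26. Atf3 turned positive in clusters 21 (0.10 ± 0.17, adjusted p = 0.811) and 26 (0.34 ± 0.51, adjusted p = 0.802). Hspa1b was called higher within cluster 23 (2.01 ± 0.65, adjusted p = 0.038), where it averaged 2.6 ± 2.34 CPM in controls and 10.8 ± 8.14 in anemic mice. Single mice there ran from 0 to 6.80 CPM in controls and from 1.83 to 23.2 in anemic mice, so this call rests on low counts.

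**Figure D3:**
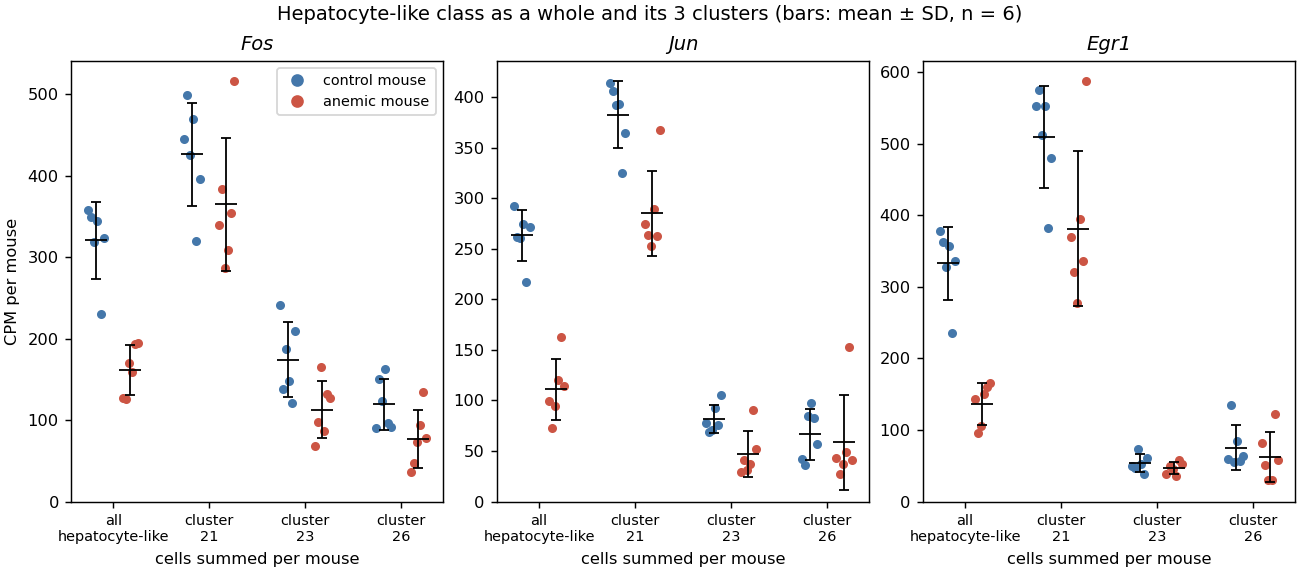
Fos, Jun and Egr1 (CPM) in the hepatocyte-like class and in each of its 3 clusters, with each point 1 mouse, control and anemic mice in separate colours, and bars for the mean ± SD (n = 6). The groups lie apart in the whole class and overlap within each cluster, and cluster 21 stands above clusters 23 and 26 in both groups.

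Endothelial-like cells showed the opposite direction for part of the set. Fos ranged from 806 to 1126 CPM (median 987) in the controls and from 846 to 1781 (median 1218) in the anemic mice (log2 fold change 0.54 ± 0.19 (SE), adjusted p = 0.0306). Jun ranged from 433 to 535 CPM (median 474) in the controls and from 530.1 to 746 (median 652) in the anemic mice (log2 fold change 0.57 ± 0.15 (SE), adjusted p = 0.00237), with only 1 anemic mouse inside the control range. Atf3 ranged from 143 to 188 CPM (median 153) in the controls and from 159 to 236 (median 210.0) in the anemic mice (log2 fold change 0.52 ± 0.14 (SE), adjusted p = 0.00376), likewise with 1 inside it. Hspa1a ranged from 17.7 to 27.1 CPM (median 22.8) in the controls and from 20.8 to 60.6 (median 31.4) in the anemic mice (log2 fold change 0.76 ± 0.26 (SE), adjusted p = 0.0279). Hspa1a and Hspa1b summed gave 0.76 ± 0.29 (adjusted p = 0.0462). Hspa1b averaged 37.3 ± 5.4 CPM against 57.2 ± 31.5 and was not called by edgeR (0.77 ± 0.31, adjusted p = 0.0626), but was called by DESeq2, and by edgeR without anemia 2 (0.86, adjusted p = 0.0329). So was Zfp36 (0.66, adjusted p = 0.0351 without anemia 2), which edgeR did not call with all mice (0.59 ± 0.23, adjusted p = 0.0608). Egr1 did not share the direction, at 1204 ± 132 CPM against 1042 ± 269 (-0.07 ± 0.15, adjusted p = 0.755). Fos lost its call without any one of control 1, 2, 4, 5 or 6 or anemia 1, 5 or 6 (0.44 to 0.56, adjusted p from 0.0500 to 0.0742), and Hspa1a without control 2, 4, 5 or 6 (adjusted p from 0.0531 to 0.0667). Hspa1a was 0.51 (adjusted p = 0.0379) without anemia 5, which held its highest level, 60.6 CPM. Erythroid RNA in this class was 1329 to 5487 CPM in controls and 6457 to 13384 in anemic mice, without overlap, and hepatocyte RNA 1713 to 3060.2 CPM in controls and 317 to 1763 in anemic mice, and their part in these changes was not tested. Without TMM scaling the median of all genes in the class shifted by -0.13, and Fos (0.41, adjusted p = 0.0796) and Hspa1a (0.62, adjusted p = 0.0532) were not called. With Y-linked expression as a covariate neither Fos (0.42, adjusted p = 0.0829) nor Hspa1a (0.63, adjusted p = 0.0823) was called. Fos kept its call in 12 of 23 and Hspa1a in 15 of 23 alternatives over the whole class.

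The endothelial-like clusters differed among themselves, and their shares are again a description. Cluster 34, led by Stab2 and Clec4g, genes of the liver sinusoid, held 53.5 ± 1.24% of control and 26.7 ± 5.13% of anemic cells of the class. There Fos (-0.06 ± 0.21, adjusted p = 0.884), Jun (-0.06 ± 0.16, adjusted p = 0.823) and Atf3 (-0.18 ± 0.11, adjusted p = 0.277) were not called, and Egr1 was called lower, beside 15.6% of all genes (-0.76 ± 0.22, adjusted p = 0.00793), from 1083 ± 103 to 589.6 ± 201 CPM. Cluster 36, led by Fgf23, Adamts1 and Gja1, held 12.6 ± 4.05% and 32.8 ± 3.67%. In it, beside 16.3% of all genes called, Fos (0.58 ± 0.20, adjusted p = 0.0286), Jun (0.56 ± 0.14, adjusted p = 0.00159), Atf3 (0.55 ± 0.15, adjusted p = 0.00554) and Hspa1a (0.87 ± 0.26, adjusted p = 0.013) were all called higher. Jun was also called higher in clusters 13 (0.54 ± 0.20, adjusted p = 0.0389) and 39 (0.53 ± 0.13, adjusted p = 0.00326), Fos in cluster 13 (0.82 ± 0.23, adjusted p = 0.00652) and Atf3 in cluster 39 (0.44 ± 0.13, adjusted p = 0.0199), and none of the 10 genes in cluster 35. Of all genes, 17.7%, 8.47% and 10% were called in clusters 13, 39 and 35.

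The stellate-like class, named from markers of the vitamin A-storing and collagen-making cells of the liver, also had higher levels for part of the set. Atf3 ranged from 228 to 277 CPM (median 265) in the controls and from 288 to 465 (median 329) in the anemic mice (log2 fold change 0.53 ± 0.14 (SE), adjusted p = 0.0038), and all anemic mice lay above all controls, as for 6.60% of all genes in this class. Fosb ranged from 523 to 734 CPM (median 545) in the controls and from 635 to 984 (median 691) in the anemic mice (log2 fold change 0.52 ± 0.16 (SE), adjusted p = 0.0123), and control 3, at 734 CPM, lay inside the anemic range. Jun ranged from 901 to 1178 CPM (median 973) in the controls and from 1056 to 1352 (median 1115) in the anemic mice (log2 fold change 0.31 ± 0.11 (SE), adjusted p = 0.0414). The Jun call was lost without any one of control 1, 4, 5 or 6 or anemia 1, 3, 4, 5 or 6 (0.25 to 0.33, adjusted p from 0.0516 to 0.124). With doublets left out, Atf3 was 0.88 (adjusted p = 0.0109), Fosb 0.76 (adjusted p = 0.0105) and Jun 0.27 (adjusted p = 0.395). Anemia 3 then kept 1 cell, and without it Atf3 (0.96, adjusted p = 0.00433) and Fosb (0.76, adjusted p = 0.00439) were called and Jun (0.34, adjusted p = 0.0963) was not. Jun was not called with Y-linked expression as a covariate (0.27, adjusted p = 0.108) either, and kept its call in 8 of 23 alternatives over the whole class. EdgeR with all mice called neither Fos (0.46 ± 0.18, adjusted p = 0.0728) nor Zfp36 (0.51 ± 0.20, adjusted p = 0.056). Both were called by DESeq2, and by edgeR without anemia 2 (0.51, adjusted p = 0.0489 and 0.57, adjusted p = 0.037). Hspa1b was called by edgeR without anemia 2 too (0.33, adjusted p = 0.0326), but not by DESeq2. Erythroid RNA in the class was 957 to 3444 CPM in controls and 3394 to 13274 in anemic mice, hepatocyte RNA 1260.1 to 2643 CPM in controls and 384 to 1409 in anemic mice, and neutrophil RNA, the summed level of 5 granule and S100 genes, 102 to 283 CPM in controls and 226 to 719 in anemic mice. Their part in these changes was not tested. Anemia 5 and anemia 6 held the highest Fosb, 984 and 966 CPM. The class held cluster 51, led by Mfap4 and Col1a1, at 40.6 ± 7.81% of control and 70.1 ± 8.70% of anemic cells, and cluster 0, led by Ank3 and Ntm, at 59.4% and 29.9%. Stellate markers raised numbered 5 in cluster 51, where Lum, Dpt and Mgp also led, and 7 in cluster 0, where Colec11 did. The class may therefore hold more than 1 cell type. Fitted alone, cluster 0 (6.4% of all genes called) kept the Atf3 call (0.42 ± 0.12, adjusted p = 0.0117) and gained Zfp36 (0.72 ± 0.20, adjusted p = 0.00899), while cluster 51 (0.486%) had no call, and Fosb was called in neither (0.26 ± 0.14, adjusted p = 0.291 and 0.27 ± 0.13, adjusted p = 0.434).

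In B-like cells Fosb and Atf3 fell, beside 1.89% of all genes called in that class. Fosb ranged from 76.1 to 103 CPM (median 82.8) in the controls and from 45 to 73.4 (median 57.6) in the anemic mice (log2 fold change -0.55 ± 0.14 (SE), adjusted p = 0.0122), without overlap, as for 1.99% of all genes. With a joint voom model, which fits all classes together, Fosb was not called (-0.57, adjusted p = 0.0989). Atf3 ranged from 78.5 to 144 CPM (median 116) in the controls and from 54.8 to 93.7 (median 81.1) in the anemic mice (log2 fold change -0.56 ± 0.16 (SE), adjusted p = 0.0378), and that call was lost without any one of control 1, 3, 4 or 6 or anemia 1, 3 or 6 (adjusted p from 0.0519 to 0.0964). It was kept in 13 of 23 alternatives over the whole class. Both were called lower again within clusters 41 (Fosb -0.69 ± 0.16, adjusted p = 0.00322 and Atf3 -0.65 ± 0.19, adjusted p = 0.0473) and 42 (Fosb -0.69 ± 0.16, adjusted p = 0.00735 and Atf3 -0.71 ± 0.16, adjusted p = 0.00504), which together held most of the class, beside 1.31% and 1.23% of all genes called. Clusters 14 (0.951% of all genes called) and 57 (0.125%) had no call, with Fosb at -0.51 ± 0.29, adjusted p = 0.542 and -0.45 ± 0.19, adjusted p = 0.638. With Y-linked expression as a covariate Atf3 was not called (-0.52, adjusted p = 0.0851). Hepatocyte RNA in B-like cells was 3057 to 4396 CPM in controls and 547 to 2461 in anemic mice, and erythroid RNA 1203 to 9418 CPM in controls and 6486 to 16694 in anemic mice. Their part in these values was not tested.

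Plasmacytoid dendritic-like cells, the interferon-producing dendritic lineage, had lower Fosb and Junb, beside 1.1% of all genes. Fosb ranged from 247 to 283 CPM (median 270.1) in the controls and from 111 to 196 (median 162) in the anemic mice (log2 fold change -0.77 ± 0.16 (SE), adjusted p = 0.00173) and Junb from 357 to 575 CPM (median 411) in the controls and from 277 to 326 (median 304) in the anemic mice (log2 fold change -0.51 ± 0.13 (SE), adjusted p = 0.0198). Neither overlapped between the groups, as for 1.24% of all genes. The Junb call was lost without control 4 (-0.48, adjusted p = 0.0545) and with the joint voom model (-0.46, adjusted p = 0.397). Pre-B-like cells, the immature B lineage of the neonatal liver, had lower Fosb (-0.52 ± 0.14, adjusted p = 0.0165), Junb (-0.37 ± 0.11, adjusted p = 0.0336) and Egr1 (-0.50 ± 0.14, adjusted p = 0.0211), beside 2.34% of all genes. Fosb there was low in both groups, from 17.7 to 20.9 CPM (median 19.6) in the controls and from 10.8 to 16.3 (median 14.3) in the anemic mice. Without anemia 4 alone Fosb reached an adjusted p of 0.0502 (-0.44), Egr1 lost its call without control 1, anemia 3 or anemia 4 (adjusted p from 0.0528 to 0.0600), and Junb without control 1, 3 or 4 or anemia 1, 3, 4 or 6 (adjusted p from 0.0500 to 0.0826). None of the 3 pre-B-like calls held with doublets left out (adjusted p = 0.0897 for Fosb, 0.101 for Egr1 and 0.122 for Junb) or with the joint voom model (0.308, 0.468 and 0.248). With Y-linked expression as a covariate Junb was not called (-0.38, adjusted p = 0.0578). Without control 3, anemia 2 and anemia 5 together Fosb was not called either (adjusted p = 0.0551). Fitted within single clusters, Junb was called lower in cluster 16 (-0.42 ± 0.11, adjusted p = 0.0237, 1.34% of all genes called), no member in clusters 11 (2.72%) and 17 (0.593%), and Fosb was -0.50 ± 0.21, adjusted p = 0.213 in cluster 11 and -0.50 ± 0.15, adjusted p = 0.0566 in cluster 16. In plasmacytoid dendritic-like cluster 43 both calls of that class were made (0.789%). Erythroid RNA was 431 to 11929 CPM in controls and 4982 to 31465 in anemic mice in plasmacytoid dendritic-like cells, 819 to 6269 CPM in controls and 3996 to 14152 in anemic mice in pre-B-like and 924 to 13141 CPM in controls and 6988 to 27684 in anemic mice in NK-like cells. Neutrophil RNA in plasmacytoid dendritic-like cells was 46.9 to 176 CPM in controls and 50.3 to 566 in anemic mice. Hepatocyte RNA was 2047 to 3739 CPM in controls and 472 to 2015 in anemic mice in plasmacytoid dendritic-like cells, and 2058 to 2852 CPM in controls and 391 to 1564 in anemic mice in pre-B-like cells. In NK-like cells Egr1 ranged from 71.4 to 103 CPM (median 77.3) in the controls and from 35.4 to 63.3 (median 53.5) in the anemic mice (log2 fold change -0.58 ± 0.16 (SE), adjusted p = 0.0453), beside 0.835% of all genes. It lost that call without any one of the 6 controls or anemia 3, 4 or 6 (adjusted p from 0.0582 to 0.142), and in 5 of the other alternatives over the whole class, up to an adjusted p of 0.478 with the joint voom model. The groups did not overlap, as for 1.76% of all genes. Nor did they for Ier2, from 575 to 769 CPM in the controls and from 435 to 549 in the anemic mice, which edgeR did not call (-0.30, adjusted p = 0.234). The same held for Fosb, from 39.7 to 50.4 CPM in the controls and from 26.5 to 36 in the anemic mice. EdgeR did not call it (-0.43 ± 0.13, adjusted p = 0.0637), while DESeq2 did, as did edgeR without anemia 2 (-0.49, adjusted p = 0.0207), where Atf3 was called too (-1.04, adjusted p = 0.0268). Fitted alone, NK-like clusters 19, 20 and 30 had no call (0.807%, 0.933% and 0.728% of all genes), with Egr1 at -0.60 ± 0.19, adjusted p = 0.116, -0.55 ± 0.17, adjusted p = 0.095 and -0.57 ± 0.21, adjusted p = 0.265. Leading genes included Cd3g in cluster 19, Trdc, Tcrg-C1 and Cd3e in cluster 20, and Trac and Trbc2 in cluster 30. The NK-like class may therefore hold T cells too. Hepatocyte RNA in NK-like cells was 2369.7 to 3566 CPM in controls and 296 to 2010.1 in anemic mice, and the part of these RNAs in the results was not tested.

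Macrophage-like cells were named from macrophage markers, which include those of Kupffer cells, the macrophages of the liver sinusoid. Leading genes also included Retnlg, Ltf and Camp in cluster 7 and Jchain in cluster 50, so the class may hold more than Kupffer cells. In this class edgeR called none of the 10 genes, beside 2.56% of all genes. At an unadjusted p under 0.05 there were 6, beside 20.9% of all genes, and DESeq2 called 3 lower, Atf3, Jun and Ier2, beside 3.4% of all genes that it called lower. The 10 fold changes were all negative, as were 44.9% of those of all genes, with a median of -0.57 against 0.03 over all genes. Cluster shares of the class differed between the groups and are given as a description, with no test. Cluster 2, led by Cd209f and Clec4f, held 41.7 ± 3.25% of control and 24.8 ± 18% of anemic cells, and cluster 3, with Marco and Spic among its leading genes, 22.1 ± 4.07% of control and 34.7 ± 16.1% of anemic cells. Fitted alone, clusters 3 and 4 had no member called (0.896% and 0.518% of all genes), with 10 and 9 of 10 fold changes negative. Cluster 2 was not fitted, since at least 1 mouse had under 20 of its cells. Hepatocyte RNA in the class was 1549.8 to 2429 CPM in controls and 284 to 1555 in anemic mice, and erythroid RNA 926 to 6169.7 CPM in controls and 3262 to 16416 in anemic mice, and their part was not tested. Ier2 averaged 329.8 ± 39.2 CPM against 196 ± 68.1 (-0.68 ± 0.23, adjusted p = 0.068) and Jun 763 ± 87.3 CPM against 408 ± 183 (-0.84 ± 0.30, adjusted p = 0.089), and for both all anemic mice lay below all controls, as for 3.30% of all genes without overlap there. Egr1 averaged 941 ± 109 CPM against 516 ± 271 (-0.81 ± 0.33, adjusted p = 0.142). Anemia 2 had the lowest values, with Egr1 at 152, Jun at 136, Fosb at 143 and Fos at 508 CPM, and anemia 3 was next with Egr1 at 329. Anemia 4 and anemia 6 had Egr1 at 839 and 769, where the lowest control had 769.7. Without anemia 2, Jun (-0.67, adjusted p = 0.0442) and Ier2 (-0.54, adjusted p = 0.036) were called lower.

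The remaining classes gave no call. T-like cells (beside 0.688% of all genes called) had 6 genes at an unadjusted p under 0.05, beside 8.61% of all genes. Cholangiocyte-like (0.0309% called), conventional dendritic-like (0.445%) and erythroid-like cells (0.226%) had 2 each, beside 9.22%, 13% and 10.6% of all genes at that unadjusted threshold. There were 4 in neutrophil-like cells (0.346% called, 15.1% unadjusted), and 0 in monocyte-like (0.34% and 12.9%) and basophil or mast-like cells (0% and 5.43%). DESeq2 called 0 of the members in each of these 7 classes, beside 1.3% of all genes over them. In neutrophil-like cells anemia 2 stood apart, with Atf3 at 415 CPM against 76.1 to 98 in controls, and Egr1 at 483 against 73.4 to 144. Its neutrophil RNA was 69946 CPM there against 168932 to 198684 in controls. In erythroid-like cells control 3 had the highest Fos, 163 CPM, and Egr1, 146 CPM, and the lowest erythroid RNA of the 12 mice, 433133 CPM. Monocyte-like cluster 47 held 28 control and 2871 anemic cells, and anemia 2 alone gave 4988 of the 11090 monocyte-like cells. The part of cell makeup in the values of these classes was not tested.

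Averaged over the 15 classes with equal weight, which leaves the makeup within each class in place, Fosb was the one gene called. Its mean log2(CPM + 1) was 7.24 ± 0.09 in controls and 6.87 ± 0.23 in anemic mice (difference -0.37 ± 0.09, limma, adjusted p = 0.0461), beside 2.61% of 4093 genes called. Among the anemic mice, 5 of 6 lay below all controls. Egr1 differed by as much (-0.37 ± 0.12, adjusted p = 0.0965), with 6 of 6 below all controls, but was not called, nor was Atf3 (-0.26 ± 0.09, adjusted p = 0.129). The share of the 4093 genes that lay apart likewise is not given here, so these counts of mice are a description only. Fos, Jun and Zfp36 differed by -0.11 ± 0.12, -0.02 ± 0.17 and -0.01 ± 0.11. The Fosb call held without anemia 4 or anemia 6 and was lost without any one of the other 10 mice (-0.31 to -0.40, adjusted p from 0.0533 to 0.112). Over the 13 classes in which the heat shock genes could be fitted (5.98% of 7947 genes called), Hspa1a differed by 0.31 ± 0.36 (adjusted p = 0.661) and Hspa1b by 0.63 ± 0.36 (adjusted p = 0.327).

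**Figure D4:**
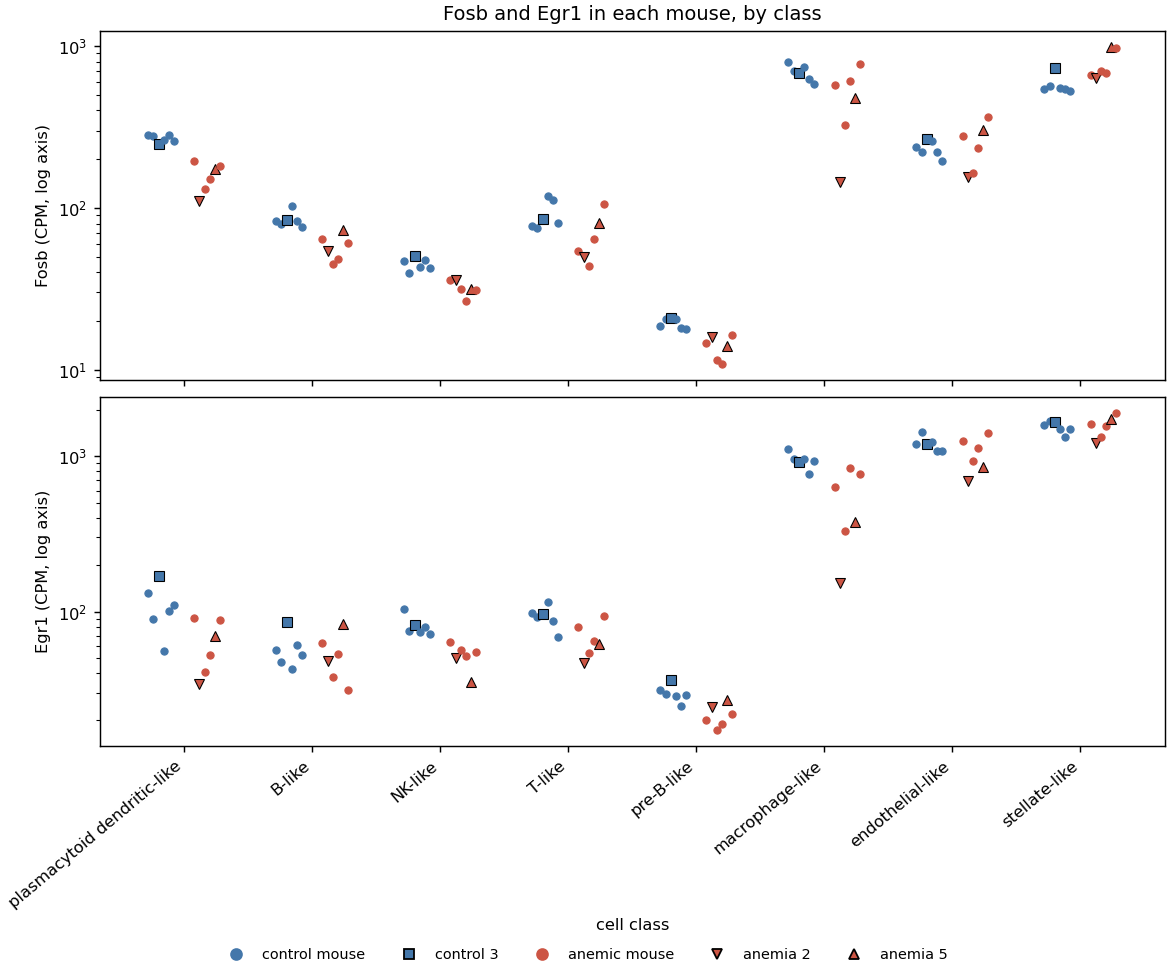
Fosb (top) and Egr1 (bottom) in each mouse for 8 classes, in CPM on a log axis, with control 3, anemia 2 and anemia 5 marked by their own symbols. Anemic mice lie below the controls for Fosb in B-like, NK-like, pre-B-like and plasmacytoid dendritic-like cells, and anemia 2 is the lowest point of macrophage-like cells for both genes. The groups do not overlap for 1.99%, 1.76%, 2.36% and 1.24% of all genes in those 4 classes.

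Whether a class departed from the others was tested directly, on the level in the class minus the mean of the other classes of the same mouse. Of 146 departures tested, 18 were called by limma, 12.3%, beside 8.23% over all genes with 15 classes and 7.38% with 13. Hepatocyte-like cells departed downward for 7 genes, beside 45.4% of all genes in that class, among them Jun (-1.34 ± 0.16, adjusted p = 2.43e-06) and Fosb (-1.03 ± 0.11, adjusted p = 1.46e-06). Endothelial-like cells departed upward, beside 5.99% of all genes, for Fos, Fosb, Jun and Atf3 (0.67 ± 0.15, adjusted p = 0.00972 for Atf3). Stellate-like cells departed upward, beside 5.33%, for Fos, Fosb, Egr1, Atf3 and Zfp36 (0.83 ± 0.11, adjusted p = 0.000389 for Fosb). Macrophage-like cells departed downward, beside 0.453%, for Hspa1a (-1.45 ± 0.31, adjusted p = 0.0334) and Hspa1b (-1.25 ± 0.22, adjusted p = 0.0139). Within that class alone edgeR called neither Hspa1a (-0.74, adjusted p = 0.218) nor Hspa1b (-0.22, adjusted p = 0.740). A departure also moves with the mean of the other classes, which includes the high anemia 5 values given below. Departures used CPM without TMM factors. In the class fits, leaving out TMM shifted the median of all genes by -0.31 in hepatocyte-like, -0.13 in endothelial-like and -0.086 in stellate-like cells. The part of such shifts in the departures was not tested.

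Hspa1a and Hspa1b stood far higher in anemia 5 than in any other mouse in several blood cell classes. In B-like cells anemia 5 had 178 CPM of Hspa1a and 315 of Hspa1b, where controls had 4.84 to 15.1 and 10.3 to 34.4. In NK-like cells it had 185 and 430.4, with controls at 4.68 to 33 and 9.74 to 49.7. In T-like, conventional dendritic-like and monocyte-like cells its Hspa1b stood at 229, 444 and 324 CPM. Anemia 1 and anemia 6 came next in NK-like cells, at 96.4 and 66.8, while anemia 2, 3 and 4 lay between 9.20 and 12.5, below 5 of the 6 controls. Control 3 was the highest control there, at 49.7. In stellate-like cells anemia 5 had 72.3 CPM of Hspa1a, rank 5 of the 12 mice, and 78.6 of Hspa1b, rank 2 behind anemia 6. In hepatocyte-like cells it had 4.51 of Hspa1a, rank 6, and 11.7 of Hspa1b, rank 2 behind anemia 2.

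**Figure D5:**
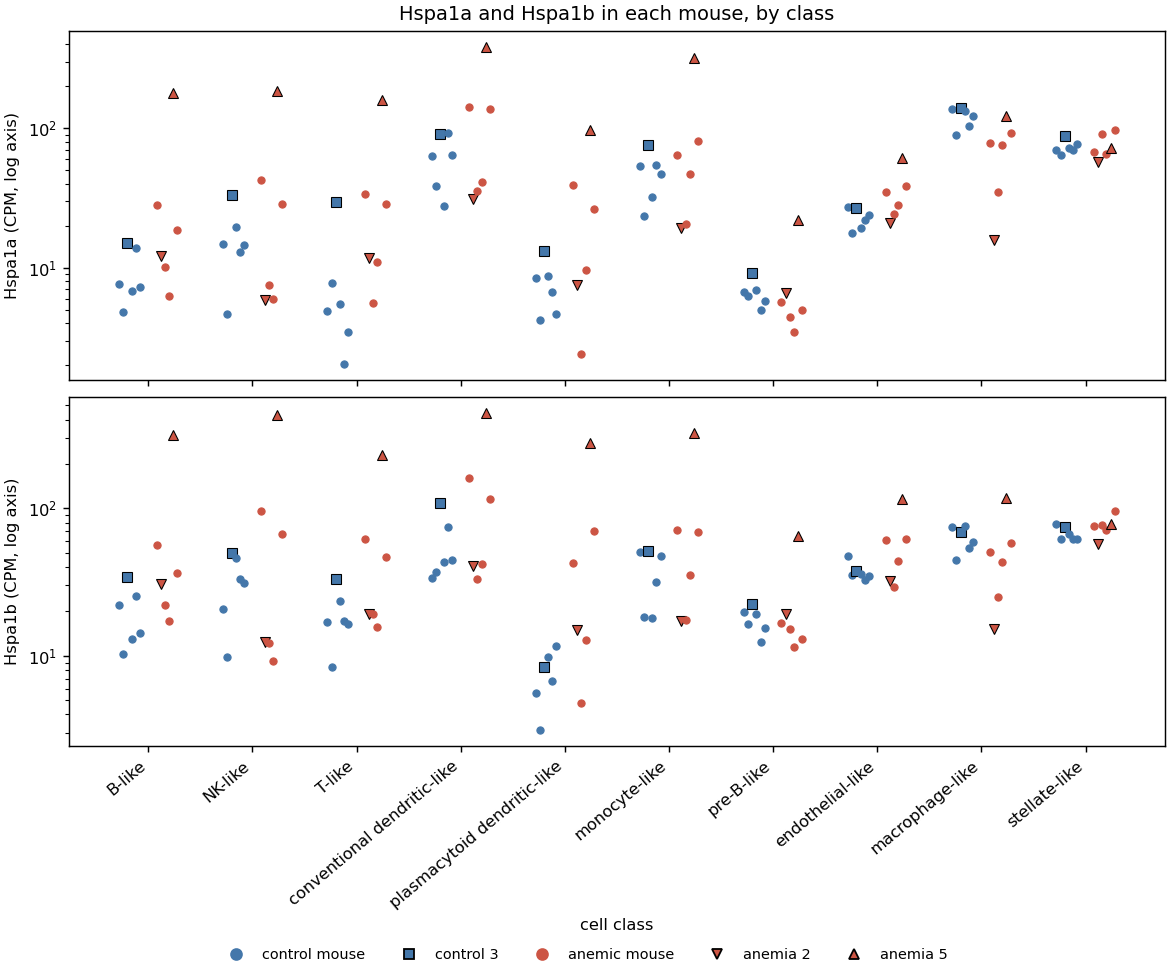
Hspa1a (top) and Hspa1b (bottom) in each mouse for 10 classes, in CPM on a log axis, with control 3, anemia 2 and anemia 5 marked by their own symbols. Anemia 5 is the highest point in B-like, NK-like, T-like, conventional dendritic-like, monocyte-like, plasmacytoid dendritic-like and pre-B-like cells for both genes, and lies inside the range of the other mice in stellate-like cells.

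In the blood cell classes edgeR called neither gene with all mice. The log2 fold change of Hspa1b in NK-like cells was 1.68 (adjusted p = 0.382) with all mice and 0.30 (adjusted p = 0.847) without anemia 5. In B-like cells it was 2.04 (adjusted p = 0.0861) with all mice and 0.73 (adjusted p = 0.229) without anemia 5, and in plasmacytoid dendritic-like cells 3.00 (adjusted p = 0.06) with all mice and 1.88 (adjusted p = 0.0619) without anemia 5, with 5 of 6 anemic mice above all controls. Hspa1b in the last class was called by DESeq2, and by edgeR without anemia 2 (3.22, adjusted p = 0.0413). For Hspa1a, T-like cells gave 2.23 (adjusted p = 0.253) with all mice and 1.00 (adjusted p = 0.664) without anemia 5, and monocyte-like cells 0.98 (adjusted p = 0.518) with all mice and -0.02 (adjusted p = 0.99) without anemia 5.

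More cells of anemia 5 carried the RNA. The share of B-like cells with an Hspa1b UMI was 20.4% in anemia 5 and 1.24 to 5.06% in the other 11 mice. Thinned to 1000 UMIs per cell, it was 15.9% against 0.732 to 3.74%, at median depths of 1608 UMIs and 1221 to 1698, with 1502 of 10198 control and 824 of 8833 anemic cells too shallow and left out. In NK-like cells the share was 30.1% against 1.81 to 10.2%, or 21.5% against 0.873 to 6.45% when thinned. In erythroid-like cells it was 0.467% in anemia 5 and 0.0397 to 0.678% in the others, at a median of 1327 UMIs in anemia 5. Erythroid RNA took 808503 CPM of that class in anemia 5, so its share is no measure of background for other classes. The part of background RNA in the lymphoid shares was not tested.

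Of the other heat shock genes followed, anemia 5 was the highest of the 12 mice for 5 of 17 in B-like cells, 3 of 17 in NK-like and 5 of 17 in T-like cells, beside 16.2%, 16% and 11.9% of all genes. Among these, Hsph1, a nucleotide exchange factor of Hsp70, was at 99.2 against 18.4 to 41.8 CPM in NK-like and 75.3 against 20.8 to 33.7 in B-like cells. Dnajb1, an Hsp40 co-chaperone, was at 188 against 78.8 to 145 in NK-like and 210.5 against 81.7 to 154 in T-like cells. Others did not follow: in B-like, NK-like and T-like cells anemia 5 ranked 8, 6 and 6 of 12 for Hspa8 and 6, 8 and 9 for Dnaja1. For Dnajb1 it ranked 12 of 12 in macrophage-like and erythroid-like cells. Anemia 5 was also the highest of 12 for Jun in B-like (313 CPM), T-like (205) and plasmacytoid dendritic-like cells (539). Its erythroid RNA in NK-like cells was the highest of the 12 mice at 27684 CPM against 924 to 13141 in controls. Its hepatocyte RNA there had rank 9. The part of these in the heat shock values was not tested.

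Over the whole set, anemia 5 was the highest of 12 mice in 56 of 150 gene and class pairs, 37.3%, beside 10.4% over all genes, and control 3 in 35, 23.3%, beside 14.2%. Anemia 4 was lowest in 28, 18.7%, beside 6.29%, anemia 3 in 26, 17.3%, beside 9.87%, and anemia 2 in 32, 21.3%, beside 17.6%. The spread was widest for the heat shock genes. Their biological coefficient of variation, edgeR's estimate of the relative spread between mice, had a median over classes of 0.504 for Hspa1a and 0.485 for Hspa1b, 2.26 and 2.58 times the trend of genes of like abundance. It was 0.312 for Jun (1.60 times) and 0.226 for Egr1 (1.34 times), and for Junb 0.168, below the trend (0.941 times). Anemic mice varied more among themselves than controls in 118 of 148 pairs (79.7%), beside 62.3% over all genes. Residuals from the class means in the 180 mouse and class sums correlated at 0.815 between Hspa1a and Hspa1b and 0.778 between Fos and Zfp36, but at 0.0373 between Junb and Hspa1b. These sums share libraries, depth and class composition, so the correlations are descriptions.

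Of the wider pathway, 28 more immediate early genes and 18 more heat shock genes were followed. In endothelial-like cells 11 of 28 immediate early genes rose, beside 8.4% of all genes called higher there, and none fell, led by Socs3, a feedback inhibitor of cytokine signalling (1.61 ± 0.29, adjusted p = 1.28e-05), and Cebpd (1.30 ± 0.26, adjusted p = 0.000103). Of the 18 heat shock genes there, 1 rose, Dnajb4 (0.33 ± 0.12, adjusted p = 0.0451), beside the same 8.4% of all genes. Also 1 fell, Hsf1, the heat shock factor itself (-0.29 ± 0.09, adjusted p = 0.0142), beside 9.31% of all genes called lower. Stellate-like cells had 8 of 28 higher, beside 8.18% of all genes, led by Cebpd (0.91 ± 0.23, adjusted p = 0.0021) and Socs3 (0.84 ± 0.22, adjusted p = 0.00368), and 3 of 18 heat shock genes higher, led by Hspb1 (1.11 ± 0.37, adjusted p = 0.0256). Hepatocyte-like cells had 14 of 28 immediate early genes lower, led by Egr2 (-1.34 ± 0.37, adjusted p = 0.0012) and Ccn1 (-1.32 ± 0.32, adjusted p = 0.000154), and none higher, beside 29.9% of all genes called lower and 54.9% called in either direction. Of 17 heat shock genes tested there, 7 rose, beside 25% of all genes called higher, and 4 fell. The higher ones were led by the mitochondrial chaperonins Hspe1 (0.87 ± 0.16, adjusted p = 2.91e-06) and Hspd1 (0.73 ± 0.14, adjusted p = 4.56e-06). Hsf1 (-0.54 ± 0.21, adjusted p = 0.018) and Dnajb4 (-0.52 ± 0.16, adjusted p = 0.0029) were lowest. The median change was -0.61 for the immediate early and 0.24 for the heat shock list, beside -0.09 over all genes.

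In lymphoid and dendritic classes the list was mostly uncalled. Klf4, a Krüppel-like factor, fell in B-like (-0.79 ± 0.16, adjusted p = 0.0016), T-like (-0.76 ± 0.19, adjusted p = 0.0251), plasmacytoid dendritic-like (-0.75 ± 0.14, adjusted p = 0.000263) and pre-B-like cells (-0.41 ± 0.12, adjusted p = 0.0427). Jund fell in plasmacytoid dendritic-like (-0.44 ± 0.12, adjusted p = 0.0379), Egr3 in conventional dendritic-like (-0.76 ± 0.20, adjusted p = 0.0306) and Hspa8, the constitutive Hsp70, in pre-B-like cells (-0.31 ± 0.09, adjusted p = 0.0375). In macrophage-like cells Dnajb1 (-0.69 ± 0.17, adjusted p = 0.00973) and Hspa8 (-0.44 ± 0.13, adjusted p = 0.0425) fell and Socs3 rose (0.58 ± 0.18, adjusted p = 0.0419). In neutrophil-like cells 24 of 27 immediate early genes tested had positive fold changes (median 0.51 against 0.01 over all genes), as had 51.8% of all genes, and none was called. Without anemia 2 the median was 0.22, 23 of 27 were positive, and Atf3 was at 0.24 in place of 0.83. The 1 gene then called was Zfp36l1 (0.72, adjusted p = 0.0401), named after its values were seen. Outside the 10 genes, the 5 whose levels followed Fos most closely over the 180 sums, after class means were removed, were Dusp1 (Pearson r 0.773), Klf2 (0.679), Ier5 (0.643), Ppp1r15a (0.621) and Klf6 (0.609), among 2285 genes. For Hspa1a they were Klf2 (0.595), Dnajb1 (0.424), Dusp1 (0.419), Zcchc7 (0.418) and Ccnd3 (0.417).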

How the data were processed

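Single-cell 3′ gene expression libraries were made from 12 livers, 1 per mouse. The authors aligned the reads to mm10 and counted UMIs with Cell Ranger 7.0.0, per the submitters' processing notes in the labels, and the deposited values are raw UMI counts per gene and cell. A barcode entered the work with a total between 500 and 50000 UMIs, of which mitochondrial genes took no more than 50%, and doublets were scored but kept. Cells were clustered with scanpy 1.11.5 (2000 variable genes, 20 components, 20 neighbours, Leiden resolution 2) without 56 member and pathway genes. Clusters were named from marker lists, with naming thresholds set after the clusters were seen. UMIs were summed per class and mouse (at least 20 cells) and every gene averaging 5 or more UMIs per mouse was tested with edgeR 4.0.16 (quasi-likelihood, TMM, R 4.3.3), with Benjamini-Hochberg adjustment and a threshold of 0.05. Class averages and departures used limma 3.58.1 on log2(CPM + 1). Standard errors were derived from the fold change and p. DESeq2 1.42.0 was an alternative.

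The 10 genes were given, and they and the related lists were chosen with earlier results of these data known. All 10 are described by name, with values for every called pair and for part of the pairs not called. Pathway genes are named by the largest called changes, up to 2 per class and direction, and the 5 genes most like Fos and Hspa1a by correlation. The clustering alternatives, replicate block, other filters and scalings, and leaving out each mouse are in the closing section, and 4 alternatives were chosen after seeing the data. On simulated counts edgeR recovered 97 of 98 genes changed by a log2 fold of 2 and 46 of 99 changed by 1 in macrophage-like sums, with 6 false calls among 14390 genes, and 92 of 94 and 38 of 96 in T-like sums, with 2 among 10167. Most member changes were smaller than 1. The simulation gave every gene the same spread between mice. That spread was wider than the median biological coefficient of variation over all genes, 0.179 in macrophage-like and 0.146 in T-like sums. It was narrower than the median over classes for Hspa1a and Hspa1b, 0.504 and 0.485. The recovery in these data may therefore differ from the simulated one. Reads of Hspa1a and Hspa1b may be split between the pair. Of mice numbered alike in both groups, 3 of 12 correlated best with their own number. By Xist, the mice numbered 1 and those numbered 4 were of the same sex and correlated at 0.480 and 0.699. The other same-numbered mice were of opposite sex and correlated at -0.215 to -0.0826. This check therefore cannot tell whether the numbers mark litters. Promoters of Ier2 and Egr1 were not used here.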

Additional observations from a re-analysis of the deposited data

Results flagged for a closer look

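Within each group of 6 mice, the highest and lowest mouse were compared with the rest by Dixon's test. Of 300 gene, class and group sets, 53 had a mouse past the 95% critical value, 17.7%, beside 7.95% of such sets over all genes tested. Chance gives about 1 in 20 for a single set, and these sets share the same 12 mice, so they are not independent. Anemia 5 was that mouse in 25 sets, control 3 in 14 and anemia 2 in 4. All values here are CPM in that mouse and class, and no explanation of them was tested. For Fos, anemia 5 had 385 in B-like cells and 668 in plasmacytoid dendritic-like cells, control 3 had 284 in B-like cells, 163 in erythroid-like cells and 2739.5 in stellate-like cells, and control 5 had 230.1 in hepatocyte-like cells. For Fosb, control 3 had 41.6 in erythroid-like cells and 734 in stellate-like cells, and control 4 had 103 in B-like cells. For Jun, anemia 5 had 313 in B-like cells, 146 in NK-like cells and 205 in T-like cells. For Junb, anemia 1 had 931 in cholangiocyte-like cells, anemia 2 had 2305 in neutrophil-like cells, and control 3 had 1115 in B-like cells and 1435 in stellate-like cells. For Egr1, control 1 had 103 in NK-like cells, control 3 had 146 in erythroid-like cells, and control 5 had 235 in hepatocyte-like cells. For Atf3, anemia 2 had 20.0 in NK-like cells and 415 in neutrophil-like cells, anemia 6 had 91.6 in plasmacytoid dendritic-like cells, control 4 had 2448 in cholangiocyte-like cells, and control 5 had 486 in conventional dendritic-like cells. For Ier2, anemia 4 had 486 in T-like cells, anemia 5 had 519.9 in B-like cells, 423 in conventional dendritic-like cells, 175 in hepatocyte-like cells and 296 in plasmacytoid dendritic-like cells, and control 3 had 541 in B-like cells, 639 in endothelial-like cells, 268 in plasmacytoid dendritic-like cells and 751 in stellate-like cells. For Zfp36, anemia 2 had 29.9 in erythroid-like cells, anemia 5 had 406 in B-like cells, and control 3 had 129 in T-like cells. For Hspa1a, anemia 5 had 178 in B-like cells, 185 in NK-like cells, 159 in T-like cells, 133 in basophil or mast-like cells, 381 in conventional dendritic-like cells, 5.68 in erythroid-like cells, 319 in monocyte-like cells and 22.1 in pre-B-like cells, and control 3 had 29.8 in T-like cells. For Hspa1b, anemia 5 had 315 in B-like cells, 430.4 in NK-like cells, 229 in T-like cells, 444 in conventional dendritic-like cells, 324 in monocyte-like cells, 278 in plasmacytoid dendritic-like cells and 64.5 in pre-B-like cells, and control 1 had 47.8 in endothelial-like cells.

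The change in 1 class differed from the mean change of the other classes, by limma, in 18 of 146 pairs. The differences are on the log2(CPM + 1) scale, class minus others. In endothelial-like cells they were 0.51 for Fos, 0.45 for Fosb, 0.48 for Jun and 0.67 for Atf3. In hepatocyte-like cells they were -0.94 for Fos, -1.03 for Fosb, -1.34 for Jun, -0.76 for Junb, -0.99 for Egr1, -0.71 for Atf3 and -1.0001 for Zfp36. In stellate-like cells they were 0.50 for Fos, 0.83 for Fosb, 0.41 for Egr1, 0.72 for Atf3 and 0.39 for Zfp36. In macrophage-like cells they were -1.45 for Hspa1a and -1.25 for Hspa1b.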

How the results depend on the processing

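None of the 23 called pairs changed direction under any whole-class alternative, and 14 (joint voom model) to 23 (DESeq2) kept their call. The joint voom model ended 9 calls (adjusted p from 0.0502 to 0.478), Fosb and Atf3 in B-like, Egr1 in NK-like, Junb in plasmacytoid dendritic-like, Fosb, Junb and Egr1 in pre-B-like, Hspa1a in endothelial-like and Hspa1b in hepatocyte-like cells. Leaving out TMM factors ended Hspa1b in hepatocyte-like, Fos and Hspa1a in endothelial-like and Jun in stellate-like cells, and leaving out doublets ended Jun in stellate-like, Egr1 in NK-like and the 3 pre-B-like calls. Leiden resolution 1 ended Hspa1a in endothelial-like, Jun in stellate-like, Egr1 in NK-like and Junb in pre-B-like cells, and a mean of at least 50 UMIs Atf3 in B-like and Egr1 in NK-like cells. With no filter on low counts Jun in stellate-like cells was lost. The 8 higher calls became 13 with DESeq2 and with the joint voom model, 4 without TMM factors, 14 with no filter on low counts and 5 with Y-linked expression as a covariate. That covariate ended 5 calls (adjusted p from 0.0578 to 0.108), Fos and Hspa1a in endothelial-like, Jun in stellate-like, Junb in pre-B-like and Atf3 in B-like cells. By their Xist and Y-linked RNA, 4 of 6 control and 2 of 6 anemic mice were female. The 15 lower calls stayed within 1.5 times of that count under these. With each mouse left out in turn the higher calls ran from 5 to 14 and the lower from 11 to 19. Fitted within single clusters, Fos (-0.059), Jun (-0.063) and Atf3 (-0.18) changed direction in endothelial-like cluster 34, and Atf3 in hepatocyte-like clusters 21 (0.10) and 26 (0.34). The cause was not tested.

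The class-averaged change of Fosb was -0.34 (limma, adjusted p = 0.0539) with a pseudocount of 5, and -0.43 to -0.31 with each mouse left out. That of Atf3 was called without the basophil or mast-like and cholangiocyte-like classes (-0.27, adjusted p = 0.0451), and ran from -0.32 (adjusted p = 0.0458, without anemia 2) to -0.19 with each mouse left out. With the replicate number as a block, Fosb was -0.37 (adjusted p = 0.0609) and 21 of the 23 pairs kept their call, Fos in endothelial-like (adjusted p = 0.0754) and Jun in stellate-like cells (0.0719) excepted. Same-numbered mice correlated at -0.215 to 0.699, which does not separate litter from sex. The labels do not tie the numbers to litters, so the numbers were not used as pairs. Low depth limits Hspa1a in basophil or mast-like, erythroid-like, neutrophil-like and hepatocyte-like cells (means of 3.83, 10.8, 11.3 and 12.8 UMIs per mouse), and Hspa1b (4.92) and Atf3 (10.9) in basophil or mast-like cells.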
